A study of Homo sapiens with 6 samples.

Results

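The 10 genes described here encode ligands, receptors and intracellular carriers of transforming growth factor beta (TGF-beta) signalling, together with 1 classical TGF-beta-induced matrix protein. They were chosen by symbol (TGFB1, TGFB2, TGFBR1, TGFBR2, TGFBI, SMAD2, SMAD3, SMAD4, SMAD6 and SMAD7), and all 10 were found among the 58735 Ensembl genes of the deposited table. RNA came from HOK-16B cells, keratinocytes of the human mouth lining that have been immortalized. Per the series description all cells received an inflammatory stimulus, and beforehand 3 samples got CBD (cannabidiol, a cannabis compound that does not intoxicate) and 3 got vehicle excipient. The stimulus, its duration and the CBD dose are not named in the labels, and no unstimulated cells were analysed here, so both groups share the stimulus. A single immortalized line limits the model, and the labels do not say that the replicates were separate cultures. The spread behind each p-value is therefore that of these samples alone and may be technical.

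TGF-beta is secreted in a latent complex and must be released before it can bind its receptors. The type II receptor, TGFBR2, binds the ligand and phosphorylates the type I receptor, TGFBR1, which in turn phosphorylates SMAD2 and SMAD3. These join SMAD4 and enter the nucleus, while SMAD7, and SMAD6 mainly on the related bone morphogenetic protein (BMP) branch, act as feedback inhibitors. In epithelia, keratinocytes included, TGF-beta is known for halting the cell cycle and for inducing matrix and migration genes.

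The promoter sequences of 4 members are shown because they represent the contrasts described below: an abundant and a scarce ligand (TGFB1 and TGFB2), the receptor whose CBD values all lay below the vehicle values (TGFBR2), and the scarce inhibitor SMAD6. They are RefSeq sequences of build GRCh38.p14, each on its gene's strand from 200 bases before to 10 bases after an annotated start. They come from chr19:41353913-41354122 (minus strand, TGFB1), chr1:218345136-218345345 (plus strand, TGFB2), chr3:30606401-30606610 (plus strand, TGFBR2) and chr15:66702036-66702245 (plus strand, SMAD6). Capitals mark matches to the AP-1 motif TGANTCA in TGFBR2 and to the SMAD-binding palindrome GTCTAGAC in SMAD6.
TGFB1: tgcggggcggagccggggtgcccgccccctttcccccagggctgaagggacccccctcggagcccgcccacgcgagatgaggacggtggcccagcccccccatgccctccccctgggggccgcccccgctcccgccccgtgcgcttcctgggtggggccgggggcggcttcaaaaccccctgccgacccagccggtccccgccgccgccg
TGFB2: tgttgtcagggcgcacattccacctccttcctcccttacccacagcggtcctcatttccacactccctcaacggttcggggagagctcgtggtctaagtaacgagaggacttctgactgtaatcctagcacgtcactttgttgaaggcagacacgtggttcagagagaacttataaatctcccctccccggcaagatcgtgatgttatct
TGFBR2: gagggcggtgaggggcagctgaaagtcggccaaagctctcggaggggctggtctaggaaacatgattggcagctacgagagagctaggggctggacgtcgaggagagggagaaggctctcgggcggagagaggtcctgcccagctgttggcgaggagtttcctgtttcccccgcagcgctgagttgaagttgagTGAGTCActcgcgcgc
SMAD6: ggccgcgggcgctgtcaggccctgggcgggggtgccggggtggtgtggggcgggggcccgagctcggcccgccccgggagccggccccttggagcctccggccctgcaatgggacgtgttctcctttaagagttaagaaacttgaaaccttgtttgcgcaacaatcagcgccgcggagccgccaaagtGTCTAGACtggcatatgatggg
The stretch of TGFB1 has a GC content of 80.5% and that of TGFB2 51.9%.

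All 10 members had RefSeq promoter windows (25 windows of 300 bases, since several genes have more than 1 start). Searched on both strands, the palindrome GTCTAGAC was found in SMAD6 alone among them, 12 bases before the start, and in 0.202% of the 35116 windows of all genes. The AP-1 motif TGANTCA lay in 1 window of TGFBR2 and 1 of SMAD3, and in 7.71% of all windows. The GC-rich SMAD motif GGCGCC lay in 6 of the 25 member windows (TGFBR1, TGFBI, SMAD2, SMAD3 and SMAD4), against 19.2% of all windows. No match of one motif overlapped a match of another in these windows, and a match describes letters only.

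Markers of the labelled cell type were abundant. All 12 keratinocyte markers had a mean of at least 1 FPKM (fragments per kilobase of exon, scaled to library depth), with KRT5 at 2777 to 3649 FPKM and KRT14 at 2575 to 3558 FPKM. The summed keratinocyte markers were 10226 to 12097 FPKM in vehicle and 12614 to 13207 FPKM in CBD libraries. Of 8 fibroblast markers only the collagen gene COL1A1 reached 1 FPKM, PDGFRA was at 0 in every library, and the sums were 7.40 to 8.14 FPKM with vehicle and 9.31 to 9.41 FPKM with CBD. Sums of immune, endothelial and melanocyte markers were at most 3.20, 0.159 and 1.60 FPKM in any library, and CD3E and TYR were at 0. The immune marker CD14 (2.13 to 3.09 FPKM) and the melanocyte marker PMEL (0.823 to 1.21 FPKM) alone of these reached a mean of 1 FPKM. In bulk RNA, fewer cells of a type and less RNA per cell cannot be told apart. Fragments counted in genes ran from 18213784 to 22158614 per library. Vehicle replicate 1 stood farthest from the others by a chi-square statistic on reads (10.2 and 16.5 per gene against the other vehicle libraries, which differed from each other by 4.42). Against the CBD libraries the statistic was 24.6 to 29.8 for vehicle replicate 1 and 5.46 to 6.78 for vehicle replicate 2. For vehicle replicate 3 it was 10.3 to 12.9. Vehicle replicate 2 thus lay nearer to the CBD libraries than to vehicle replicate 1. Transcript GC content per counted fragment was lower in vehicle (49.58%, 50.35% and 49.99% in replicates 1 to 3) than in CBD libraries (50.77%, 50.77% and 50.69%; exact permutation p = 0.1, the smallest that 3 against 3 allows), so GC content and treatment move together here.

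In stimulated keratinocytes the log2 differences of the 8 tested members, CBD minus vehicle, ran from -0.23 (TGFBR2) to 0.36 (SMAD7). By limma on log2(FPKM + 1), with Benjamini-Hochberg adjustment over all 12517 tested genes, 0 of the 8 members that could be tested were called at an adjusted p under 0.05, against 0.352% of all tested genes. At an unadjusted p under 0.05 there were 3 (TGFB1, TGFBR2 and SMAD7) of 8, against 31.4% of all genes (15.4% higher and 16.0% lower). With limma-voom on the read numbers recovered from the FPKM values, 3 of 8 were called (TGFB1 higher, TGFBR2 and SMAD2 lower), against 13.9% of all genes. The 3 CBD values lay wholly above or below the 3 vehicle values in 3 of the 8 (TGFB1 above, TGFBR2 and SMAD2 below), against 40.7% of all tested genes. The members' median log2 difference was -0.07 and that of all tested genes -0.01. TGFB2 and SMAD6, at mean levels below 1 FPKM, were not tested.

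**Figure D1:**
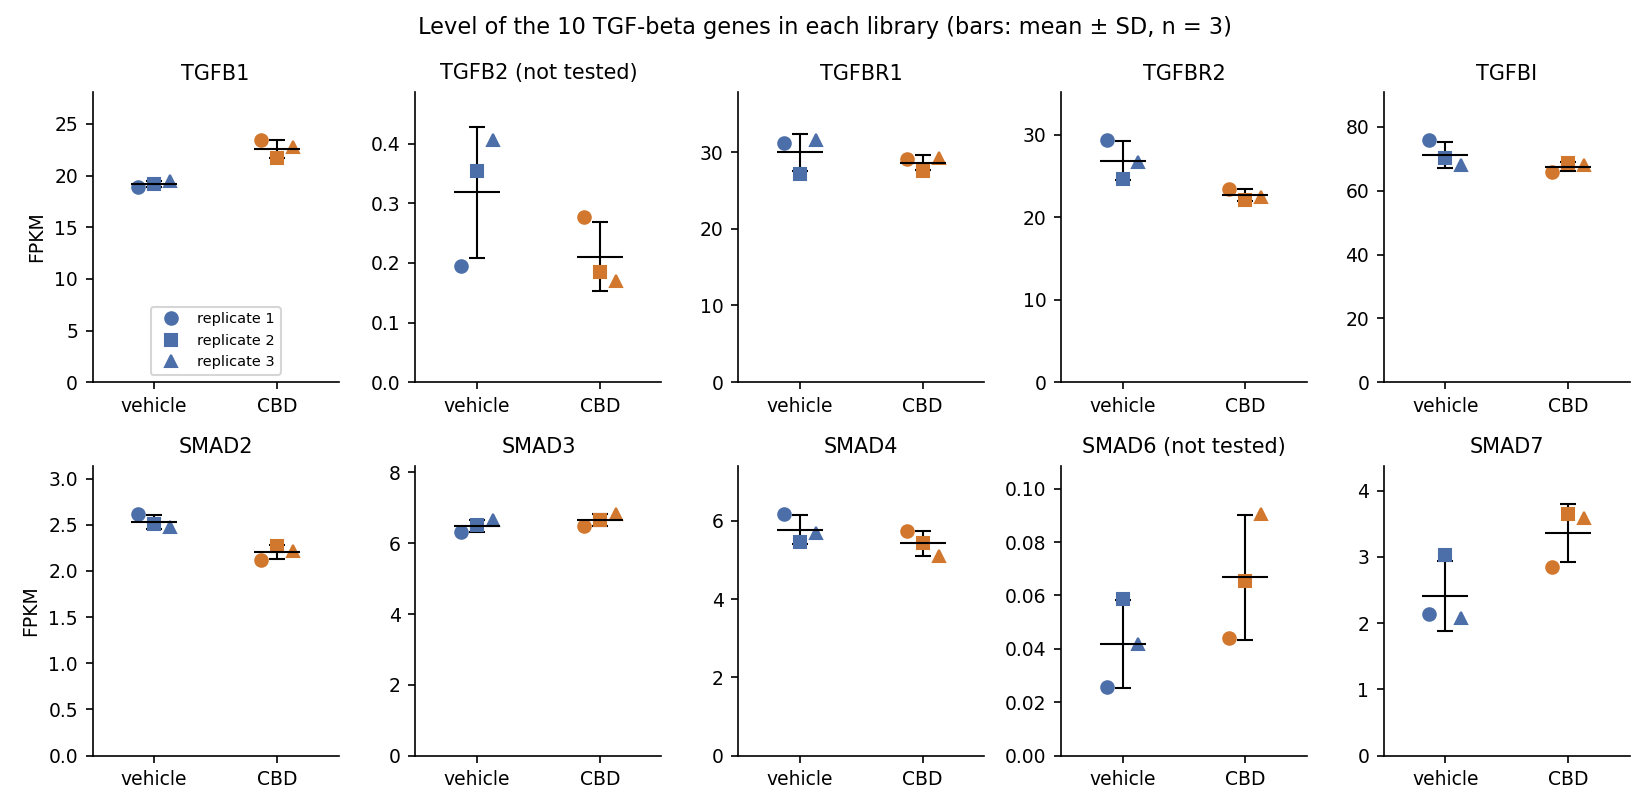
FPKM (vertical axes, from 0) of each of the 10 members in the 3 vehicle (blue) and 3 CBD (orange) libraries, with symbols for replicates and bars for mean ± SD (n = 3). The groups separate for TGFB1, TGFBR2 and SMAD2 and overlap for the other 7, and TGFB2 and SMAD6 lie below 0.5 FPKM throughout.

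Of the ligands, TGFB1, the main TGF-beta of epithelia and immune cells, was by far the more abundant. On chromosome 19 (41301587 to 41353911, minus strand, GENCODE 29 gene span on GRCh38), it measured 18.9, 19.2 and 19.5 FPKM in vehicle replicates 1 to 3 and 23.4, 21.7 and 22.7 FPKM in CBD replicates 1 to 3. Every CBD library was above every vehicle library, and the means of 19.2 ± 0.309 and 22.6 ± 0.874 FPKM (SD, n = 3) stood 1.18-fold apart. The log2 difference of 0.23 ± 0.05 (SE; 95% interval 0.11 to 0.34) did not pass (limma adjusted p = 0.0608), although it did with limma-voom on recovered reads (adjusted p = 0.0323). TGFB1 also passed by limma among genes with a mean of at least 5 FPKM (adjusted p = 0.0413), where 10.1% of all genes did, 5.87% higher and 4.19% lower. TGFB1 had the GC-richest transcripts of the 10 members (61.4%), and once each library's GC trend was taken out its difference was 0.04 (95% interval -0.10 to 0.17; limma adjusted p = 0.752). Of its exonic bases 6.64% overlap HNRNPUL1 on the opposite strand, and as the strand setting of the counting is not known here, reads in that stretch cannot be told apart.

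TGFB2, a ligand best known from development and mesenchymal tissue, was near the detection limit. It measured 0.195, 0.354 and 0.406 FPKM with vehicle and 0.277, 0.185 and 0.169 FPKM with CBD, which rest on 23, 40 and 41 and on 34, 22 and 18 reads. The ranges overlapped, with vehicle replicate 1 as low as the CBD libraries (exact permutation p = 0.2, two-sided). Without the filter on low values its log2 difference was -0.12 (95% interval -0.32 to 0.08; limma adjusted p = 0.569). Annotated exons of TGFB2-OT1 cover 26.6% of its exonic bases, and as reads in shared exons may be assigned to neither gene, the 0 FPKM listed for that transcript does not show how the overlap bears on the TGFB2 values.

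The type I receptor gene TGFBR1 was the most abundant member after TGFBI, at 31.2, 27.2 and 31.5 FPKM with vehicle and 29.1, 27.5 and 29.2 FPKM with CBD. All 3 CBD values lay within the vehicle range, and the log2 difference was -0.06 ± 0.07 (SE; 95% interval -0.22 to 0.10; limma adjusted p = 0.554). With the GC trend removed it lay on the other side of 0, at 0.09 (95% interval -0.03 to 0.21). TGFBR1 lies on chromosome 9 (99104038 to 99154192) and its transcripts are GC-poor, at 39.7%.

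The type II receptor gene TGFBR2, on chromosome 3 (30606502 to 30694142), measured 29.3, 24.6 and 26.7 FPKM with vehicle and 23.5, 22.1 and 22.4 FPKM with CBD. The CBD values sat close together below all 3 vehicle values, of which replicate 1 was highest. Means were 26.9 ± 2.38 and 22.7 ± 0.707 FPKM (SD, n = 3). The log2 difference of -0.23 ± 0.07 (SE; 95% interval -0.40 to -0.07) did not pass by limma (adjusted p = 0.0899) and passed by limma-voom (adjusted p = 0.0421). At 47.2% GC its transcripts lie near the median of tested genes (48.9%), and removing the GC trend left TGFBR2 with a difference of -0.18 (95% interval -0.32 to -0.05; limma adjusted p = 0.185). TGFBR2 was the 1 member of 8 with an unadjusted p under 0.05 after that correction, against 18.2% of all genes.

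Of the receptor-activated SMADs, SMAD2 on chromosome 18 (47808957 to 47931146) measured 2.62, 2.50 and 2.47 FPKM with vehicle and 2.12, 2.27 and 2.22 FPKM with CBD. The groups did not overlap, and means were 2.53 ± 0.0757 and 2.20 ± 0.0770 FPKM (SD, n = 3). The log2 difference was -0.14 ± 0.06 (SE; limma adjusted p = 0.168; limma-voom adjusted p = 0.0440). SMAD2 transcripts are GC-poor, at 40.2%, and after removal of the GC trend the difference was 0.0043 (95% interval -0.13 to 0.14). SMAD3, the other carrier of the TGF-beta branch, on chromosome 15 (67063763 to 67195195), measured 6.31, 6.52 and 6.65 FPKM with vehicle and 6.49, 6.65 and 6.83 FPKM with CBD. The groups overlapped in part, and the log2 difference of 0.03 had a 95% interval of -0.08 to 0.14 (limma adjusted p = 0.673).

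SMAD4, the common partner of the activated SMADs and a tumour suppressor, lies on chromosome 18 (51028394 to 51085045). It measured 6.18, 5.47 and 5.68 FPKM with vehicle and 5.75, 5.42 and 5.12 FPKM with CBD. Vehicle replicate 1 was the highest and the groups overlapped. The log2 difference was -0.08 ± 0.06 (SE; 95% interval -0.23 to 0.08; limma adjusted p = 0.436), and it was 0.06 with the GC trend removed. SMAD4 shares 7.37% of its exonic bases with AC091551.1 on the same strand, and how that bears on its values was not tested.

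Of the inhibitory SMADs, SMAD7, which blocks the type I receptor, lies on chromosome 18 (48919853 to 48952052, minus strand). Its levels were 2.13, 3.02 and 2.08 FPKM with vehicle and 2.85, 3.65 and 3.58 FPKM with CBD, from 205 to 425 reads per library. Vehicle replicate 2 was above CBD replicate 1, while the other 4 libraries separated by group. The means of 2.41 ± 0.532 and 3.36 ± 0.444 FPKM (SD, n = 3) gave the largest log2 difference of the tested members, 0.36 ± 0.13 (SE; 95% interval 0.06 to 0.66; limma adjusted p = 0.116; limma-voom adjusted p = 0.0571). Without vehicle replicate 2 the SMAD7 difference was 0.49 and passed (limma adjusted p = 0.0322), as did those of TGFB1 (adjusted p = 0.0389) and TGFBR2 (adjusted p = 0.0302), and 18.8% of all genes did so (10.1% higher and 8.66% lower). With the GC trend removed SMAD7 stood at 0.26 (95% interval -0.02 to 0.53; limma adjusted p = 0.305). SMAD6 rested on 5, 11 and 7 reads with vehicle and 9, 13 and 16 with CBD (0.0256 to 0.0906 FPKM), overlapped between groups, and gave an exact permutation p of 0.2.

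TGFBI, an extracellular matrix protein named for its induction by TGF-beta, was the most abundant member and lies on chromosome 5 (136028895 to 136063818). It measured 75.8, 70.1 and 67.9 FPKM with vehicle and 65.9, 68.7 and 68.1 FPKM with CBD, from at least 10406 reads per library. Vehicle replicate 3 lay among the CBD values. The log2 difference of -0.08 ± 0.05 (SE; 95% interval -0.20 to 0.05; limma adjusted p = 0.370) was nearly the same with the GC trend removed (-0.09).

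**Figure D2:**
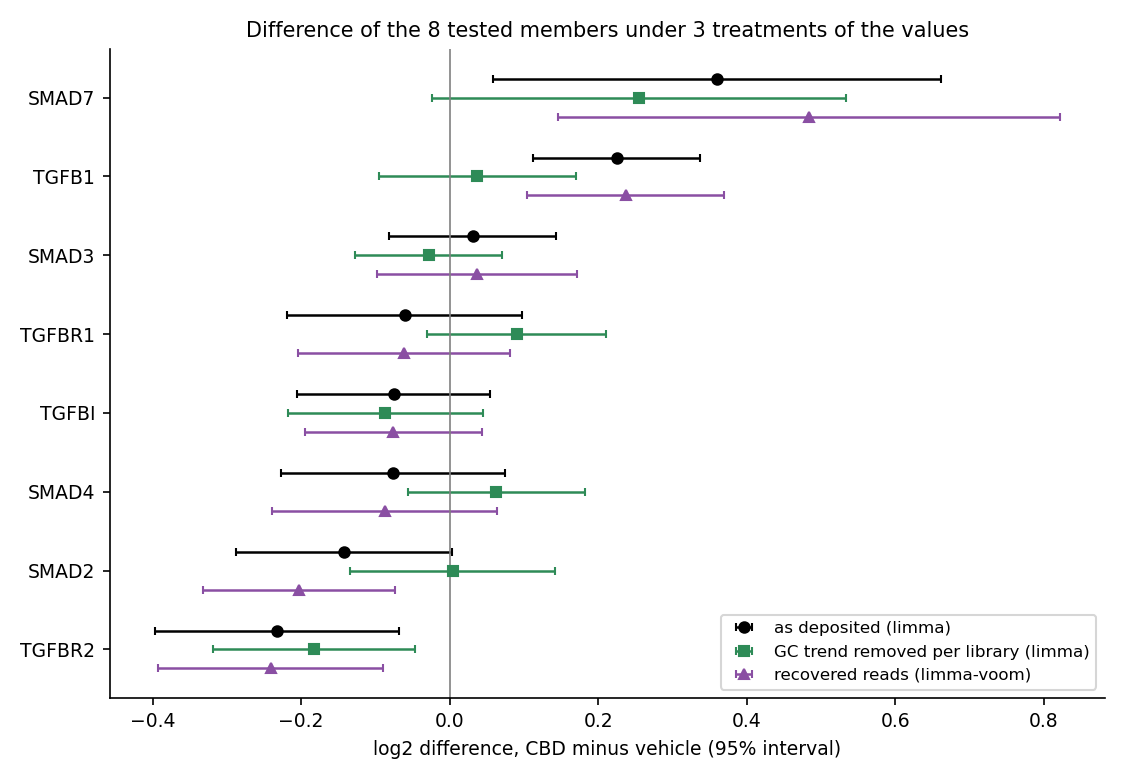
Log2 difference, CBD minus vehicle (horizontal axis), with its 95% interval for the 8 tested members, from the deposited FPKM (black circles), after removal of a GC trend per library (green squares) and from recovered reads by limma-voom (purple triangles). SMAD7 lies farthest right and TGFBR2 farthest left as deposited, at 0.36 and -0.23, and TGFB1 moves to 0.04 without the GC trend.

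The order of the members' differences followed their GC content in part. Across the 12510 tested genes with a GC value, and genes are not independent replicates, log2 differences had a Spearman correlation of 0.67 with transcript GC content. The members below 45% GC (TGFBR1, SMAD2 and SMAD4) had differences of -0.06, -0.14 and -0.08, and the members above 55% (TGFB1 and SMAD7) 0.23 and 0.36. With the GC trend removed the differences of the 8 tested members ran from -0.18 (TGFBR2) to 0.26 (SMAD7), their median was 0.02, and 0 of 8 were called by limma, against 0.04% of all genes (0.024% higher and 0.016% lower). TGFBR1, SMAD2 and SMAD4 then turned from below to above 0, and SMAD3 from above to below. GC composition of the libraries and CBD treatment cannot be told apart in this design.

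**Figure D3:**
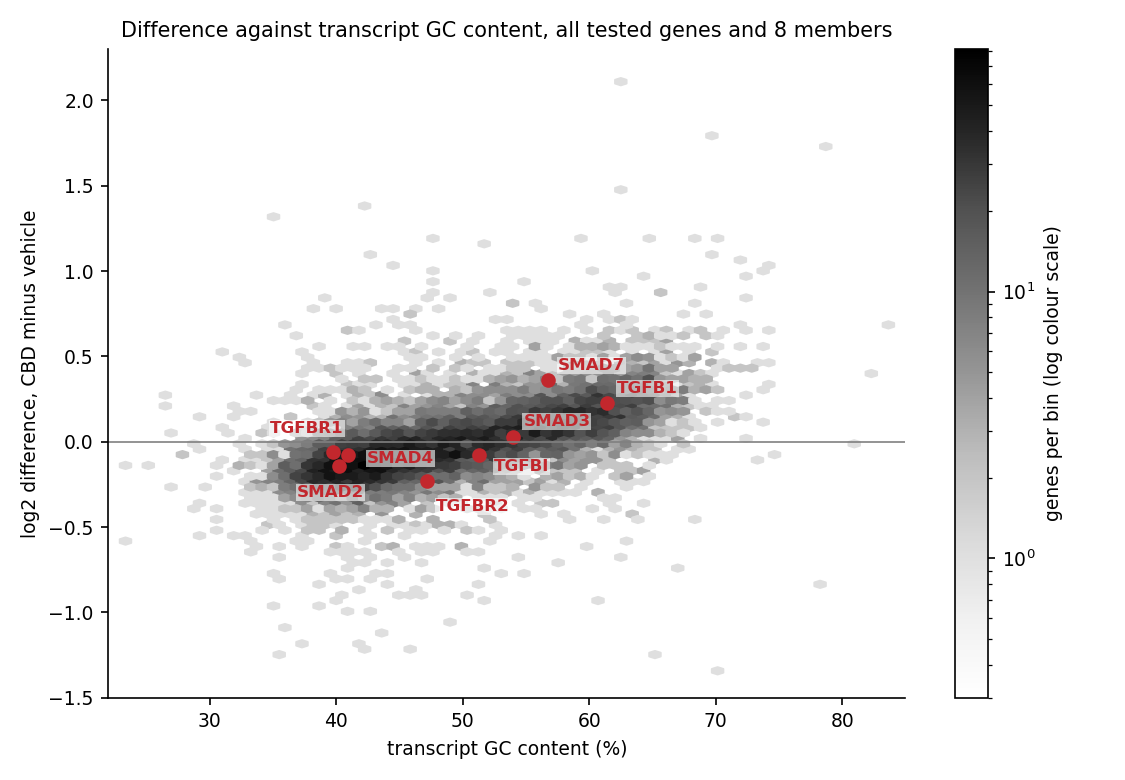
Log2 difference, CBD minus vehicle (vertical axis), against transcript GC content in percent (horizontal axis) for all tested genes, shaded by number on a log colour scale, with the 8 tested members in red. Most members lie in the band of all genes, SMAD7 toward its upper edge and TGFBR2 toward its lower edge.

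Compared per kilobase of annotated exon, over all 6 libraries, the levels ran in the order TGFBI (mean 69.4 FPKM), TGFBR1 (29.3), TGFBR2 (24.8), TGFB1 (20.9), SMAD3 (6.57), SMAD4 (5.60), SMAD7 (2.89), SMAD2 (2.37), TGFB2 (0.264) and SMAD6 (0.0543 FPKM). TGFBR1 exceeded TGFBR2 in 6 of 6 libraries, although their ranges over libraries overlapped. TGFBR2 exceeded TGFB1 in 5 of 6 libraries and SMAD7 exceeded SMAD2 in 4 of 6, so neither of these last pairs is ordered beyond its spread. The remaining neighbours had ranges that did not overlap. The length behind the values matters for SMAD2, whose annotated exons sum to 36.4 kb, against 9.11 kb for SMAD3. SMAD2 had 1665 to 2175 reads per library and SMAD3 1189 to 1410, so SMAD2 was lower per kilobase and higher in reads. The order of the 10 was the same when the longest coding transcript was taken as the length, an alternative chosen after seeing the data. For SMAD2 that transcript is 34.5 kb, close to its exon sum, so this alternative cannot show how length bears on the rank of SMAD2.

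Ratios of paired members within a library do not depend on how that library is scaled. TGFBR1 exceeded TGFBR2 by 1.06, 1.11 and 1.18 times in vehicle and by 1.24, 1.25 and 1.30 times in CBD libraries. These ranges did not overlap, and the mean log2 ratio was 0.16 ± 0.08 with vehicle and 0.34 ± 0.04 with CBD (SD, n = 3). The difference of 0.18 reached the smallest possible exact permutation p of 0.1 (0.2 adjusted over the 4 ratios computed). GC trends were removed on the log2(FPKM + 1) scale, where this difference was 0.17 before and 0.27 after removal. SMAD2 stood at 0.415, 0.384 and 0.372 of the SMAD3 level with vehicle and 0.326, 0.341 and 0.325 with CBD. Those groups did not overlap either (log2 difference -0.24; exact permutation p = 0.1, 0.2 adjusted). On the log2(FPKM + 1) scale the difference was -0.17, but with the GC trend removed it was 0.03. TGFB1 exceeded TGFB2 by 48.0 to 96.6 times in vehicle and by 84.6 to 134 times in CBD libraries (exact permutation p = 0.2, 0.267 adjusted), with overlapping ranges. SMAD7 exceeded SMAD6 by 49.8 to 83.4 and by 39.6 to 64.7 times (exact permutation p = 0.6, 0.6 adjusted), and both of these ratios rest on few reads of the scarcer gene.

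**Figure D4:**
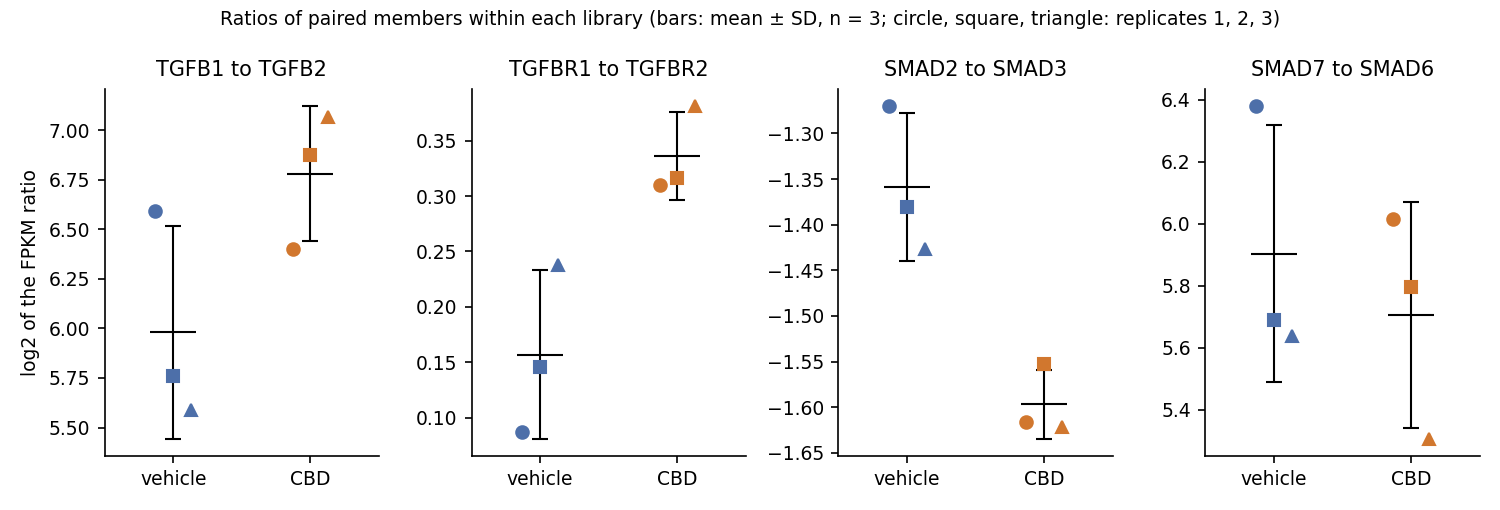
Log2 of the FPKM ratio of 4 pairs of members (vertical axes, each on its own scale and not starting at 0) in each vehicle (blue) and CBD (orange) library, with bars for mean ± SD (n = 3). TGFBR1 to TGFBR2 and SMAD2 to SMAD3 separate by group, and the other 2 ratios overlap.

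Around these genes, 7 further lists of 117 pathway genes held 75 that could be tested. By limma 1 of the 75 was called, THBS1, lower with CBD, and 0 were called higher (background 0.0959% lower and 0.256% higher). By limma-voom 11 were called higher and 4 lower, 15 of 75, against 7.26% and 6.68% of all genes. The groups did not overlap in 31 of the 75, with CBD above in 17 and below in 14, against 18.7% and 21.9% of all genes.

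Among genes that hold TGF-beta latent or release it, 15 of 19 were tested, with a median log2 difference of 0.04. Of the 15, 9 lay above 0 and 6 below, so the genes named here do not show the lean of the list. At an unadjusted p under 0.05 by limma 4 were higher and 2 lower, against 15.4% and 16.0% of all genes. By limma-voom 2 were called higher and 1 lower, against 7.26% and 6.68%. The groups did not overlap with CBD above in 4 and below in 2, against 18.7% and 21.9%. THBS1 encodes thrombospondin-1, a matrix protein known to activate latent TGF-beta. It measured 65.7, 57.2 and 66.3 FPKM with vehicle and 44.0, 36.9 and 38.8 FPKM with CBD, well apart, and fell by 0.65 on the log2 scale (limma adjusted p = 0.0452; 0.0729 with the GC trend removed, where the difference was -0.61). No gene at all was called lower when vehicle replicate 3 or any 1 of the CBD libraries was left out, so the THBS1 call was lost there, as it was without the filter on low values (adjusted p = 0.134) and with the replicate number as a block. BMP1, a protease that processes matrix and latency proteins, had means of 10.5 ± 1.22 and 12.9 ± 0.256 FPKM (limma adjusted p = 0.0828). The integrin gene ITGB6, whose product with ITGAV releases TGF-beta in epithelia, had a log2 difference of -0.21 (limma adjusted p = 0.132), and ITGAV -0.07 (adjusted p = 0.370). After removal of the GC trend ITGB6 stood at -0.083, ITGAV turned to 0.093, and BMP1 went from 0.28 to 0.10.

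Of 12 extracellular antagonists 5 were tested and 0 called by limma (2 higher and 1 lower at an unadjusted p under 0.05, against 15.4% and 16.0% of all genes, and the same numbers by limma-voom, against 7.26% and 6.68%). FST, which encodes the activin-binding protein follistatin, stood at 9.77, 9.33 and 9.06 FPKM with vehicle and 7.20, 5.92 and 5.81 FPKM with CBD. Its log2 difference of -0.51 ± 0.08 (SE) lay just outside the threshold (limma adjusted p = 0.0538; limma-voom adjusted p = 0.0110) and was -0.46 with the GC trend removed. BGN, the matrix proteoglycan biglycan, had 7.62 ± 0.881 and 9.80 ± 0.165 FPKM (limma adjusted p = 0.0683), and its log2 difference went from 0.33 to 0.15 with the GC trend removed.

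Other ligands and receptors of the family gave small differences. Only 3 of 15 further ligands reached 1 FPKM, with log2 differences between -0.04 and -0.01, among them INHBA, an activin subunit, at 1.32 ± 0.214 and 1.24 ± 0.0323 FPKM (limma adjusted p = 0.777) and GDF11 (adjusted p = 0.855). Of 13 further receptors 5 were tested and had differences from -0.14 (BMPR2, a type II BMP receptor, limma adjusted p = 0.245) to 0.09 (ACVR1B, a type I activin receptor, limma adjusted p = 0.269). With the GC trend removed BMPR2 turned to 0.029 and INHBA to 0.033, and ACVR1B was 0.034. In these 2 lists 0 genes were called by limma or limma-voom, and 0 had an unadjusted p under 0.05.

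Of 30 further SMADs, SMAD cofactors, ubiquitin ligases and phosphatases, 27 were tested, with a median log2 difference of -0.05 and 16 below 0. By limma 0 were called, and by limma-voom 1 higher and 1 lower, against 7.26% and 6.68% of all genes. At an unadjusted p under 0.05 3 were higher and 7 lower, against 15.4% and 16.0%. UCHL5, a deubiquitinase gene, had means of 11.2 ± 0.495 and 9.14 ± 0.487 FPKM (limma adjusted p = 0.0616). STUB1, a ubiquitin ligase gene, had 14.3 ± 1.68 and 17.7 ± 0.985 FPKM (limma adjusted p = 0.0875). UCHL5 transcripts contain 38.6% GC and those of STUB1 64.3%, and after removal of the GC trend their differences were -0.11 and 0.05.

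Genes commonly induced by TGF-beta lay on both sides of 0, more of them above. Of 20 listed targets 18 were tested and 0 called by limma. Of the 18, 13 lay above 0 and 5 below, with log2 differences from -0.23 to 0.61. The CBD values lay wholly above the vehicle values in 7 and wholly below in 2, against 18.7% and 21.9% of all genes. At an unadjusted p under 0.05 8 were higher and 2 lower, against 15.4% and 16.0% of all genes, and by limma-voom 5 and 1, against 7.26% and 6.68%. The median log2 difference was 0.16, against -0.01 for all genes, and 0.09 with the GC trend removed. The cyclin-dependent kinase inhibitor genes CDKN1A and CDKN2B, through which TGF-beta halts the cell cycle, stood at 53.6 ± 4.22 and 69.8 ± 3.85 FPKM and at 14.7 ± 0.991 and 18.8 ± 0.860 FPKM (both limma adjusted p = 0.0574). CDKN2B kept its log2 difference of 0.33 with the GC trend removed, where CDKN1A went from 0.38 to 0.24. The matrix gene FN1 (fibronectin) had a log2 difference of -0.22 (limma adjusted p = 0.102). COL1A1, also counted above as a fibroblast marker, had 0.25 (limma adjusted p = 0.0608) and 0.073 with the GC trend removed, and the part of other cells in it was not tested.

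On the BMP side, the list of ID genes and BMP targets had 2 of 8 members tested and 0 called by limma (1 higher at an unadjusted p under 0.05, against 15.4% of all genes, and by limma-voom, against 7.26%). ID3, an inhibitor of differentiation induced by BMP signals, stood at 32.1, 35.2 and 30.5 FPKM with vehicle and 43.2, 45.3 and 38.9 FPKM with CBD, with no overlap (limma adjusted p = 0.0605). Its relative ID1 stood at 1.94 ± 0.500 and 1.36 ± 0.389 FPKM, in the other direction and overlapping (limma adjusted p = 0.225). ID1 rested on 32 to 67 reads per library. With the GC trend removed the log2 difference of ID3 went from 0.37 to 0.26 (limma adjusted p = 0.135). That of ID1 went from -0.31 to -0.44 (limma adjusted p = 0.222).

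**Figure D5:**
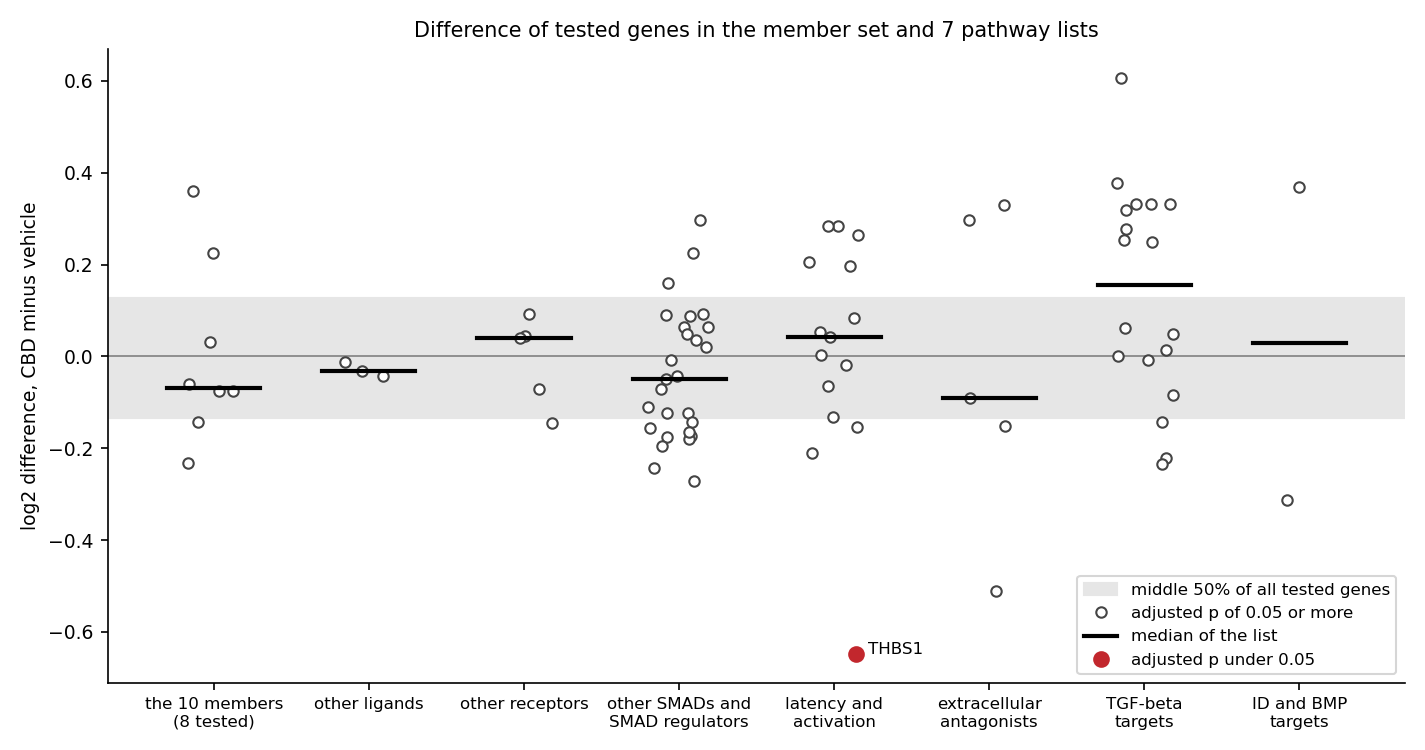
Log2 difference, CBD minus vehicle (vertical axis), of each tested gene among the members and the 7 pathway lists, with the list medians as black bars and the middle 50% of all tested genes as a grey band. THBS1, at -0.65, is the filled red point and the 1 gene with an adjusted p under 0.05.

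Over the 6 libraries, the tested genes whose log2 values ran most like those of TGFB1 were ZNF746 and EFNA1 (Pearson r of 0.996 and 0.995), with 110 genes above 0.95. TGFBR2 ran most like SNX16 and FN1 (0.999 and 0.998), with 829 genes above 0.95, and SMAD3 most like CATSPER2 and SEMA4F (0.988 and 0.976), with 18. The 6 points fall into 2 treatment groups and share library depth and GC composition, so these values describe likeness only.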

How the data were processed

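Paired-end RNA sequencing of 6 libraries gave 1 table of FPKM values, deposited by the authors per library with no pooling, per the file headers. Tools listed in the submitters' processing notes are featureCounts 1.5.0-p3 and HISAT2 2.0.5. Genome build, annotation and strand setting are not given in the sources used here. All 58735 identifiers matched GENCODE 29. Multiplying FPKM by the exon-union length and 1 factor per library gave whole reads for 100% of values (tolerance 0.01).

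Differences were fitted with limma 3.58.1 (R 4.3.3) on log2(FPKM + 1), group as the only term, intensity trend in the variance prior, for 12517 genes with a mean of at least 1 FPKM. The 1 added to FPKM before taking logs understates changes of low genes. Groups came from the treatment label. GC content is the length-weighted mean over GENCODE transcripts, and its trend was removed by loess (span 0.3). Permutation tests were exact and two-sided. The fit was tested on simulated data. Replicates differed by more than sampling noise (chi-square 2.95 to 16.5 per gene within groups). Replicate numbers came from titles and the labels state no pairing, so same-numbered libraries were not treated as pairs. Their deviations correlated at -0.0027 to 0.05. Fragments counted in genes fell with replicate number in both groups, and why was not tested. They were 21200871, 20271670 and 18213784 with vehicle and 22158614, 21470824 and 19010494 with CBD. Named genes are the 10 members, the 2 tested genes of each list with the smallest adjusted p, the 2 most similar in pattern to 3 members, and, added after their values were seen, ITGAV, ITGB6, FN1 and COL1A1. Members and lists were chosen with earlier results of these data known. The labels number the line differently in 1 free-text field, and 1 line was assumed. Python 3.11.15, pandas 2.3.3, numpy 2.4.6 and matplotlib 3.10.9 were used. The 19 alternatives are described in the closing section.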

Additional observations from a re-analysis of the deposited data

How the results depend on the processing

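Of 19 alternative settings, the last chosen after seeing the data, most left the member count at 0 higher and 0 lower by limma. It was 1 higher and 0 lower (TGFB1) at a mean of at least 5 FPKM (5.87% and 4.19% of all genes), 1 and 2 by limma-voom, and 2 and 1 with library quality weights (21.7% and 22.9% of all genes), where estimation of the weights stopped short of convergence. Leaving out 1 library gave 0 to 2 higher and 0 to 1 lower, the highest without vehicle replicate 2 (10.1% and 8.66% of all genes). TGFB1, TGFBR2, TGFBI and SMAD7 kept their sign under every setting in which they were tested, within 0.04 to 0.25, -0.29 to -0.13, -0.14 to -0.02 and 0.18 to 0.49. With the GC trend removed TGFBR1 turned to 0.090, SMAD2 to 0.0043, SMAD3 to -0.028 and SMAD4 to 0.063, and with vehicle replicate 1 also left out TGFBR1 was 0.072, SMAD3 -0.025 and SMAD4 0.064, while SMAD2 was back below 0, at -0.024. The log2 ratio of SMAD2 to SMAD3 (-0.24) was -0.17 with a pseudocount of 1, and turned to 0.032 when the GC trend was also removed. That of SMAD7 to SMAD6 (-0.20) turned to 0.33 with a pseudocount of 1, and ran from -0.35 to 0.041 with 1 library left out, above 0 without vehicle replicate 1 and without CBD replicate 3 (0.0024). Neither this ratio nor that of TGFB1 to TGFB2 could be given with the GC trend removed, since SMAD6 and TGFB2 were not tested, and SMAD2 and SMAD7 have no value at a mean of at least 5 FPKM.

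Over all genes, 32 higher and 12 lower became 58 and 16 with a pseudocount of 5, 0 and 0 without a filter, 427 and 305 at a mean of at least 5 FPKM, 56 and 17 with median-ratio scaling, 2 and 2 with equal FPKM sums, 54 and 19 with quantile normalization, 0 and 1 without the intensity trend, 2711 and 2863 with library weights, 3 and 2 with the GC trend removed, 909 and 836 by limma-voom, and 0 and 0 without vehicle replicate 1 and the GC trend. Leaving out 1 library gave 0 to 1267 higher and 0 to 1084 lower. With the replicate block 0 and 0 were called, and 0 and 0 members, and sign flips of the pairs gave p of 0.25 to 0.5 for the ratios, where 0.25 is the smallest possible. The cause of these shifts was not tested. Depth limits TGFB2 and SMAD6, with at most 41 and 16 reads per library.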
